A study of Mus musculus with 2 samples.

Results

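Distal PPARγ peaks in repeat sequence were described: 324 of the 2537 peaks of the list (12.8%). In each, the centre base is in lower case (masked) in the NCBI sequence of GRCm38, the assembly of mm10. Lower case marks repeated sequence there, but it names no repeat element or family, and the masking program is not given. They were chosen by position and masking alone. The centre had to lie within 100 kb of the transcription start site (TSS) of a protein-coding gene and outside every promoter, from 1000 bp before to 100 bp after any annotated TSS. The list held 410 peaks with a masked centre, of which 20 lay in a promoter and 66 lay farther than 100 kb from a TSS. The peaks with an unmasked centre that met the same position rule, 1608 in number, served for comparison. Of all 200 bp windows of sequence under that rule, 2539153 had a masked centre and 4935253 an unmasked one. Masked centres were thus less frequent among the distal peaks than among these windows, and the cause was not tested. The cells were naive CD4+ T cells of C57BL/6J mice, activated and polarised to TH2 cells in culture, the helper cells of type 2 immunity. All of them had been transduced on days 1 and 2 with a retrovirus that expresses TY1-tagged Pparg, and chromatin was taken on day 4 with an antibody against the tag. The receptor mapped is therefore the introduced one, and the input of the same cells was the only control. There was 1 ChIP library, with 10229438 tags (0.53% of them in peaks), so every p-value below takes peaks or sites as its units and describes this list, with no measure of the spread between cultures. The deposited rows give positions and no strength, so each peak counted once.

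PPARγ is a ligand-activated nuclear receptor that binds DNA as a heterodimer with a retinoid X receptor. The pair prefers DR1, a direct repeat of the core AGGTCA with 1 base between the copies. AP-1 is a family of Fos and Jun dimers that T cell activation induces, and it binds TGACTCA. Transposable elements can carry such words as they copy themselves through a genome, so that one ancestral sequence may place the same word beside many genes. B1 and similar short interspersed elements are among the most numerous of these in the mouse.

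The sequences on which the DR1 results turn are shown first, each read from GRCm38, the assembly of mm10, 5′ to 3′ on the strand of the match. Shown are the 10 peaks with a DR1 match wholly in masked bases and the fewest mismatches, named by the gene with the nearest TSS. Capitals mark the DR1 match, with 12 bases on each side.
Golgb1, chr16:36880952-36880988, plus strand, no mismatch: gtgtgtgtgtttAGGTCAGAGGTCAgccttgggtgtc
Ctdspl2, chr2:121976106-121976142, minus strand, no mismatch: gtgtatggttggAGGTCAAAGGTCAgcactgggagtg
Cryba4, chr5:112241309-112241345, minus strand, no mismatch: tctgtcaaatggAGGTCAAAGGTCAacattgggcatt
Cd28, chr1:60762024-60762060, minus strand, no mismatch: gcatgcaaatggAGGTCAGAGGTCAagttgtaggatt
Prex1, chr2:166665116-166665152, minus strand, no mismatch: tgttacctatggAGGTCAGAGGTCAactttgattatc
Tmtc4, chr14:122948411-122948447, plus strand, no mismatch: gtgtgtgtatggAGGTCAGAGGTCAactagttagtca
Stag1, chr9:100715627-100715663, plus strand, no mismatch: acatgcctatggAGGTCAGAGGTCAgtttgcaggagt
Prss30, chr17:23983049-23983085, plus strand, 1 mismatch: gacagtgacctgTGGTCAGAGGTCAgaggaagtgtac
Nfyc, chr4:120819962-120819998, plus strand, 1 mismatch: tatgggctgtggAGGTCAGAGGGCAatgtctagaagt
Npas4, chr19:4995322-4995358, plus strand, 1 mismatch: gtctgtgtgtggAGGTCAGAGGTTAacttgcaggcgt

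The sequences on which the AP-1 results turn are the 6 peaks of 1 sequence group, numbered 5 below, which was chosen after its values were seen. Capitals mark the AP-1 match.
Zfp853, chr5:143283512-143283542, minus strand: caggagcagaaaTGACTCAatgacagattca
Mipol1, chr12:57243986-57244016, plus strand: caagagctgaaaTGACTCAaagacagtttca
Utp23, chr15:51914678-51914708, minus strand: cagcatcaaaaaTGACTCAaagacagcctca
Wdr44, chrX:23648574-23648604, plus strand: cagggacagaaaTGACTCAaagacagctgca
Map6d1, chr16:20192250-20192280, plus strand: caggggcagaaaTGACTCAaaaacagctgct
Cdc7, chr5:107056871-107056901, minus strand: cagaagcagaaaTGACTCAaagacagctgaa

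The label "repeat" held for only a part of the 324 peaks. The masked run that covers the centre had a median length of 46 bp (quartiles 26 and 84.2 bp, range 19 to 1329 bp). In 113 peaks (34.9%) the run was shorter than 30 bp, and in 24 peaks (7.41%) it reached 200 bp or more. Masked bases made up a median of 42.8% of the deposited peak interval, at least 50% of it in 137 peaks, and all of it in 7. The longest runs lay near Tmem236 (1329 bp) and Dhx40 (1317 bp). The peak near Cd28, the costimulatory receptor of T cells, serves as an example: 122 of its bases were masked, and the masked DR1 word stands beside a run of tc and ac repeats. Its plus strand, chr1:60762000-60762172 in an intron, is shown whole, with the DR1 match in capitals as it reads on that strand.
Cd28 peak: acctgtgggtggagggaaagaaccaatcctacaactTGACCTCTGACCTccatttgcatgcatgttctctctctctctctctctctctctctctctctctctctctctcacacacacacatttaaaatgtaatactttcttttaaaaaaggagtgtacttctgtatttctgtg

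Copies of the peak sequences were counted on chromosome 19, taken as 1 sample of the genome: alignments of at least 50 bp that cover the peak centre, found with the 400 bp around it. Of the 324 masked-centre peaks, 163 (50.3%) had at least 1 such copy, against 137 of 1608 (8.52%) of the unmasked-centre peaks and 15.5% of all distal peaks. These shares follow from the masking that chose the peaks and are a description. The copy number ranged from 0 in 161 peaks through 1 to 9 in 43 peaks and 10 to 99 in 41 peaks to 100 or more in 79 peaks. The search filtered simple repeats, which give no copies of their own. The 16 bases at the centre occurred a median of 18 times in the genome, against 3 times for unmasked-centre peaks. By contrast, every 50-mer was unique in 270 of the 324 peaks (83.3%) and in 1559 of the 1608 unmasked-centre peaks. Only tags with a unique position were used, per the series text, so sequence that recurs unchanged over a whole tag could gain none. Peaks with recurring 50-mers were still in the list, and the lowest share of unique 50-mers in a masked-centre peak was 16.9%. The effect of this rule on the list was not tested.

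**Figure D1:**
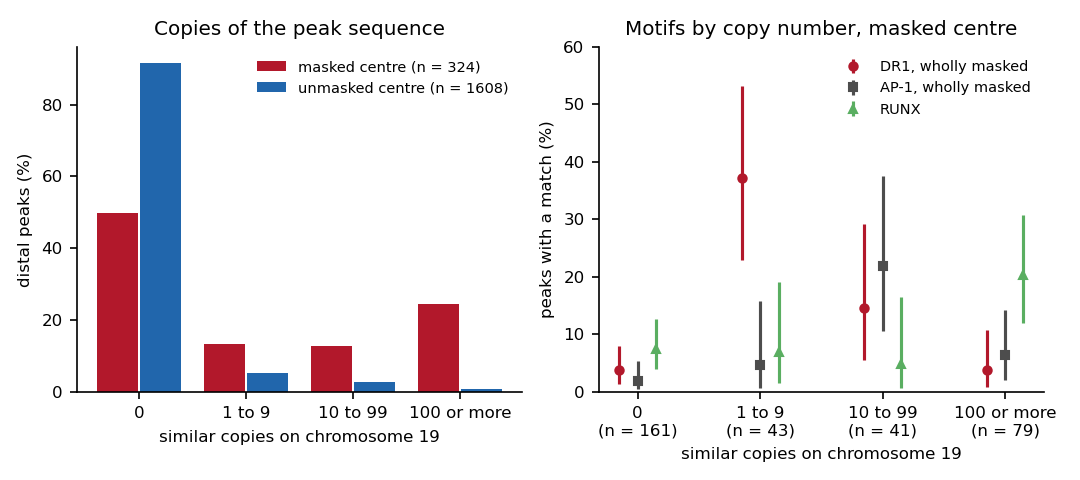
Left, share of distal peaks (%) by the number of similar copies on chromosome 19, for masked (red) and unmasked (blue) centres. Right, share of masked-centre peaks (%, with exact 95% binomial intervals) that hold a wholly masked DR1 match, a wholly masked AP-1 match or a RUNX match, by copy number: DR1 is highest at 1 to 9 copies (37.2%), AP-1 at 10 to 99 (22.0%) and RUNX at 100 or more (20.3%). Of the AP-1 peaks at 10 to 99 copies, 6 belong to sequence group 5 and 2 to group 12. RUNX was in 6.12% of all masked windows of distal sequence.

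No difference in DR1 was detected between the masked-centre peaks and the other distal peaks. A match with up to 2 mismatches to AGGTCANAGGTCA, on either strand within 200 bp around the centre, was found in 67 of 324 masked-centre peaks (20.7%, exact 95% interval 16.4 to 25.5) and in 329 of 1608 unmasked-centre peaks (20.5%). Over all distal peaks the share was 20.5%. The log2 odds ratio was 0.02 ± 0.22 (SE, interval -0.41 to 0.44, Fisher's exact test, adjusted p = 0.992 over 19 motifs). The interval leaves room for a difference of either sign. In all 200 bp windows of distal sequence the share was far lower, 2.05% where the centre was masked and 2.93% where it was not. The peaks thus exceeded such windows 10.1-fold and 6.99-fold. Closer matches were found more often in masked-centre peaks, without passing the test: up to 1 mismatch in 31 (9.57%) against 103 (6.41%, Fisher's exact test, p = 0.0541), and none in 7 (2.16%) against 16 (0.995%, p = 0.0901).

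For AP-1 no difference was detected either. TGACTCA was found on either strand in 58 of 324 masked-centre peaks (17.9%, interval 13.9 to 22.5) and in 303 of 1608 unmasked-centre peaks (18.8%), with 18.7% over all distal peaks. The log2 odds ratio was -0.09 ± 0.23 (SE, interval -0.54 to 0.36, Fisher's exact test, adjusted p = 0.963). The shares in all distal windows were 2.40% with a masked and 3.69% with an unmasked centre. DR1 and AP-1 stood together in 12 masked-centre peaks (3.70%) and in 48 unmasked-centre peaks (2.99%). Neither word was found in 211 masked-centre peaks (65.1%).

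Of the other 17 motifs, 1 passed the test. DR3, the same cores 3 bases apart and the spacing known for the vitamin D receptor, was in 2 masked-centre peaks (0.617%) and in 61 unmasked-centre peaks (3.79%, log2 odds ratio -2.67 ± 1.04, Fisher's exact test, adjusted p = 0.0304). That call was lost under 9 of 13 alternatives, among them the deposited peak as window (Fisher's exact test, adjusted p = 0.119). RUNX, the word TGTGGTT of a T cell factor family, was in 33 masked-centre peaks (10.2%) and 112 others (6.97%, Fisher's exact test, adjusted p = 0.303). Over all distal windows RUNX also had the higher share where the centre was masked, 6.12% against 4.35%. It passed only between wholly masked and wholly unmasked peaks, in 4 of 7 against 60 of 757 (Fisher's exact test, adjusted p = 0.0247). ETS words, another lymphoid family, were in 27 (8.33%) and 203 (12.6%, Fisher's exact test, adjusted p = 0.288). Over all distal windows ETS also had the lower share where the centre was masked, 5.75% against 8.07%. GATA words, known as the binding words of the TH2 factor GATA3, were in 107 (33.0%) and 620 (38.6%, Fisher's exact test, adjusted p = 0.303), beside 35.6% of masked and 35.1% of unmasked windows. Both passed when the classes were redrawn by the masked share of the peak, at least 50% against less, whatever the centre base. ETS was then in 10 of 188 against 220 of 1744 (adjusted p = 0.0186, Fisher's exact test) and GATA in 51 against 676 (the same adjusted p). The 188 peaks were 137 with a masked and 51 with an unmasked centre.

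**Figure D2:**
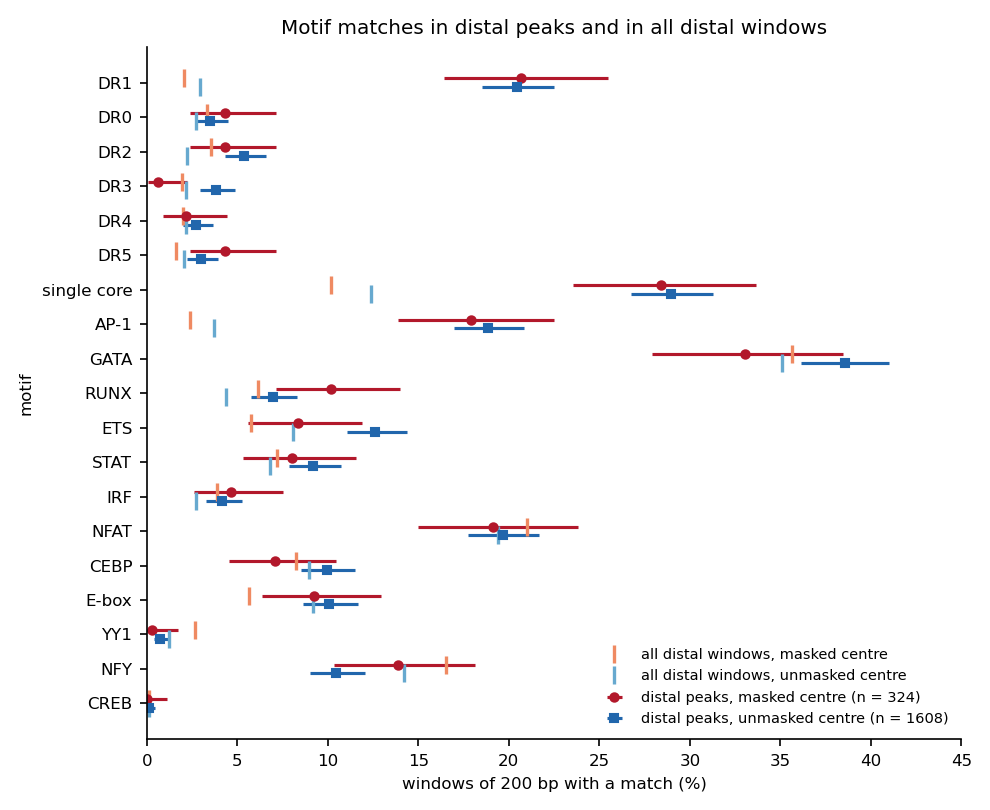
Share of 200 bp windows (%) with a match to each of 19 motifs, for masked-centre (red circles) and unmasked-centre (blue squares) distal peaks with exact 95% binomial intervals, and for all distal windows of each kind (ticks). DR1, AP-1 and the single AGGTCA core stand well above the ticks in both classes, and the intervals of the classes overlap for every motif but DR3.

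The DR1 words lay at the centres of the masked-centre peaks. Within 50 bp of the centre there were 57 matches, or 1.74 per 1000 positions, against 20 matches at 300 to 500 bp, or 0.160 per 1000 positions. The excess was 10.9-fold (log2 3.45 ± 0.37, exact binomial test, adjusted p = 3.2e-23 over 2 motifs). For AP-1 there were 27 matches or 0.825 per 1000 positions within 50 bp against 40 matches or 0.314 per 1000 positions farther out, an excess of 2.63-fold (log2 1.39 ± 0.36, exact binomial test, adjusted p = 2.0e-04). AP-1 did not peak at the centre itself: the 50 bp bins on either side of it held 11 and 15 matches. The next bins out, at 50 to 100 bp, held 16 and 20. When only words wholly in masked bases were counted, per masked position, the log2 excess was 4.12 for DR1 (exact binomial test, adjusted p = 5.8e-10) and 2.23 for AP-1 (adjusted p = 0.00304). The difference between the 2 motifs was not tested.

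**Figure D3:**
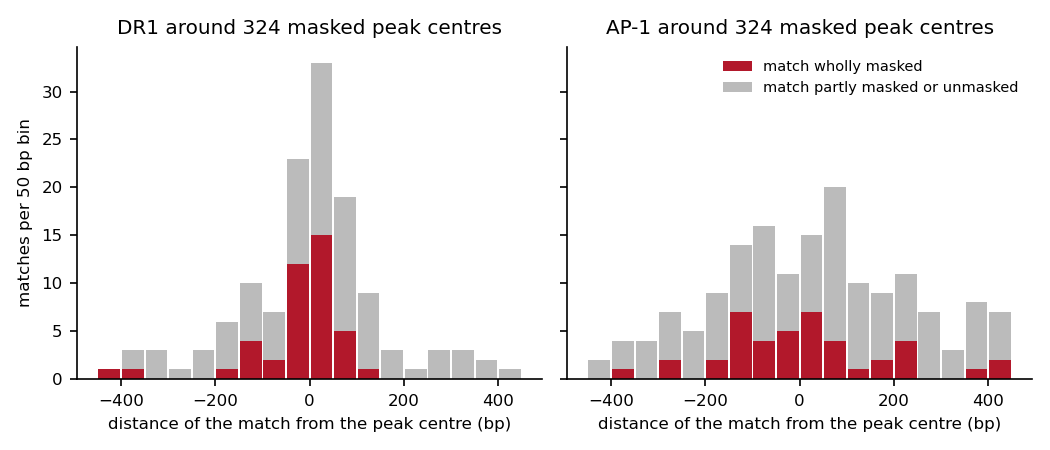
Matches to DR1 (left) and AP-1 (right) per 50 bp bin against their distance from the peak centre (bp), in the 324 masked-centre peaks. Red bars count matches wholly in masked bases and grey bars the rest. The DR1 bars peak within 50 bp of the centre, where 57 matches lie. The AP-1 bars are higher at 50 to 100 bp on either side (16 and 20 matches) than next to the centre (11 and 15).

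A masked centre did not mean that the word itself was masked. Of the 80 DR1 matches in these peaks, 33 lay wholly in masked bases, 14 partly and 33 wholly in unmasked bases beside the repeat. By peak, 31 of the 67 DR1 carriers (46.3%) had a wholly masked match, which is 9.57% of the 324 peaks (interval 6.59 to 13.3) and 9.09 times the share of masked windows of distal sequence. Of the 60 AP-1 matches, 19 were wholly masked, 4 partly and 37 not at all. AP-1 in masked bases was thus found in 19 peaks (5.86%, interval 3.57 to 9.01), 5.06 times the share of masked windows. Among the 12 peaks with both words, 3 had both wholly masked: those nearest Rsbn1 (in an intron of Ptpn22), Nppc and Utp23. The other 9 were nearest Kank1, Ctsh, Gnaq, Gfra4, Pam, Dhcr7, Slc36a3, Osbpl3 and Wdr44.

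By class of copy number, wholly masked DR1 had its highest share at 1 to 9 copies and wholly masked AP-1 at 10 to 99. DR1 in masked bases was in 6 of 161 peaks without a copy (3.73%), in 16 of 43 with 1 to 9 copies (37.2%), in 6 of 41 with 10 to 99 (14.6%) and in 3 of 79 with 100 or more (3.80%). AP-1 in masked bases was in 3 (1.86%), 2 (4.65%), 9 (22.0%) and 5 (6.33%) of the same classes. Of the 9 peaks, 6 belong to sequence group 5 and 2 to group 12, described below, so that share rests largely on related sequences. The median masked run also rose over the classes, from 29 bp to 46, 59 and 107 bp, which was not adjusted for. These classes were drawn after the copies were counted, so no test is given. Simple tandem repeats (units of 1 to 6 bases over at least 70% of the masked run) made up 36 of the 324 runs, with AC units in 17 and AG units in 10. DR1 was in 8 of these (22.2%) and in 59 of the other 288 (20.5%, log2 odds ratio 0.15 ± 0.62, interval -1.06 to 1.36, Fisher's exact test, p = 0.828).

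The masked DR1 words share more than their cores. In the 10 sequences printed above, the base between the cores is G in 8 and A in the others, and tgg precedes the first core in 8. Over all 31 peaks with a wholly masked match, the base between the cores was G in 24 (77.4%) and A in 6 (19.4%). In the 329 unmasked-centre peaks with a match it was G in 97 (29.5%) and A in 176 (53.5%). These 329 matches were taken whether masked or not, so this class also holds masked words. Of the sites with no mismatch inside any distal peak window, 14 were wholly masked, whereas only 7 masked-centre peaks had such a match. The log2 odds ratio for G was 3.04 ± 0.64 (Fisher's exact test, adjusted p = 4.4e-07 over 2 bases, a comparison chosen after the sequences were seen). Some of the masked matches align with each other, such as those near Hdac9 and Golgb1 (92.2% identity over 77 bp). The test counts such related words as separate, so its SE and p-value are too small. The A spacer is that of the textbook PPAR element. In the masked-centre peaks whose match was not wholly masked, A was found in 18 of 36 (50.0%) and G in 16. Thymine stood at the third base before the first core in 83.9% of the 31 masked matches, and GTGTG was found within the 12 bases before it in 10 of 31 (32.3%), against 14 of 329 (4.26%) in the unmasked-centre peaks. Of the 2248 wholly masked DR1 sites of distal sequence with no mismatch, in peaks or not, 59.4% had that thymine and 17.5% had GTGTG. The masked matches of the peaks were not tested against these sites. No flanking base reached a majority around the DR1 words of the unmasked-centre peaks.

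The form with G was also the more frequent one among masked DR1 sites of distal sequence as a whole. Counting sites on a 50-mer that occurs once, distal sequence held 3215 DR1 sites with no mismatch, of which 2170 (67.5%) were wholly masked. Of these, 1975 (91.0%) had G between the cores, against 198 of 929 unmasked sites (21.3%). Few were inside a peak window, meaning within 100 bp of the centre of a distal peak: 14 of the 2170 masked (0.645%) and 9 of the 929 unmasked (0.969%, log2 odds ratio -0.59 ± 0.62, Fisher's exact test, adjusted p = 0.363 over 3 site classes). With up to 1 mismatch, 40 of 13903 masked sites (0.288%) and 87 of 14265 unmasked sites (0.610%) were inside a peak window, which is a lower share for masked sites (log2 odds ratio -1.09 ± 0.28, Fisher's exact test, adjusted p = 8.1e-05). This difference was past the threshold among sites with A between the cores (5 of 1345 against 53 of 4355, log2 -1.72 ± 0.68, Fisher's exact test, adjusted p = 0.00955 over 2 bases). Among sites with G it was not (35 of 11795 against 22 of 4717, log2 -0.65 ± 0.39, Fisher's exact test, adjusted p = 0.106). The difference between the bases was not tested. Of the AP-1 sites, 31 of 35411 masked (0.0875%) and 346 of 188497 unmasked (0.184%) were inside a peak window (log2 -1.07 ± 0.27, Fisher's exact test, adjusted p = 5.9e-05). These site counts were chosen after the data were seen. Chromatin state was not analysed here, and whether masked and unmasked sites differ in it was not tested.

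**Figure D4:**
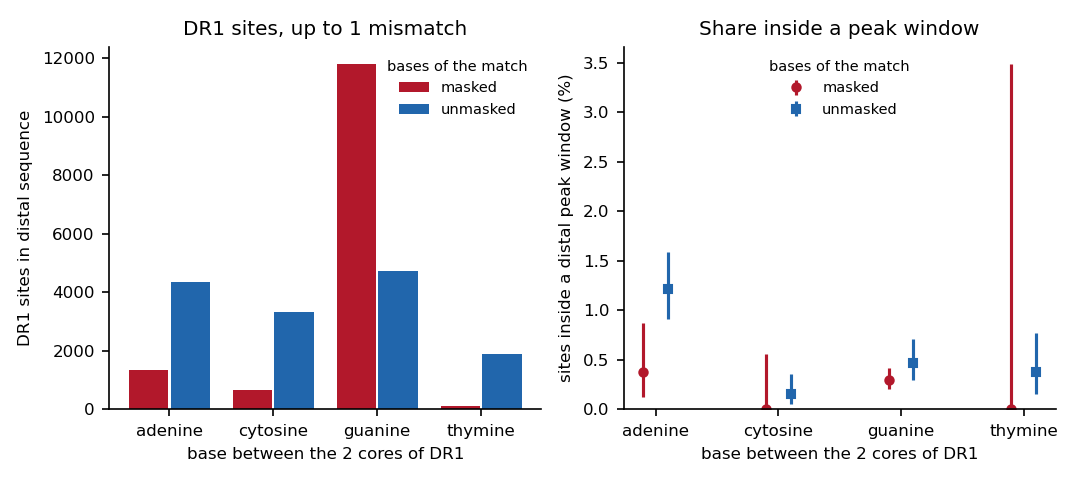
Left, number of DR1 sites (up to 1 mismatch, on a 50-mer that occurs once) in distal sequence by the base between the cores, for wholly masked (red) and unmasked (blue) sites. Right, share of those sites inside a distal peak window (%, exact 95% binomial intervals): unmasked sites with adenine stand highest, 53 of 4355, and the 11795 masked guanine sites include 35.

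Alignment of the masked-centre peaks with each other placed 77 of the 324 in 12 groups of related sequence, 8 of them with at least 3 peaks. Peaks were joined where an alignment of at least 50 bp covered both centres. The other 247 met this with no other peak, although some aligned to one away from a centre, such as the DR1 words near Cd28 and Stag1 (81.1% identity over 53 bp). Repeat families are not named in the annotation used here, except for a few annotated elements. The annotated B1_Mus2 element, a short interspersed element, aligned to 12 masked-centre peaks (69.3 to 92.7% identity over 74 to 140 bp) and to 4 unmasked-centre peaks. A further 5 aligned to Bc1, the gene of a small neuronal RNA, and 2 to tRNA genes. Both kinds of gene are known relatives of short interspersed elements.

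The largest group had 21 peaks (64.3 to 82.5% identity), each with 223 to 662 copies on chromosome 19. DR1 was in 3 of them, AP-1 in 5 and RUNX in 5. Among its peaks nearest a TSS were those at Sp2 (1372 bp) and Slc7a1, the cationic amino acid transporter (2395 bp). Its peaks near Runx1 and Vav3 had both AP-1 and RUNX words. The second group had 13 peaks with 345 to 4171 copies and a RUNX word in 9. It included Rhbdf2 (1046 bp from the TSS), Baz2a (2250 bp upstream) and Sc5d, an enzyme of cholesterol synthesis (2831 bp). DR1 and AP-1 were found in 1 of the 13, the same peak, near Dhcr7. The third group had 12 peaks with 2019 to 7254 copies, 9 of them aligned to B1_Mus2, among them those nearest Kat7 (92.7% identity), Mrpl45 (91.3%) and Smad3 (90.3%). DR1 was in 1 of the 12 and AP-1 in 2, so that 9 had neither word.

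Groups 4 and 5 were small, and nearly all of their peaks held one of the words. Group 4 had 7 peaks with 4 to 102 copies on chromosome 19. DR1 was in 6 of the 7: Gnaq, Nppc, Hdac9, St3gal1, Golgb1 and Elf1, and not in Atg10. In 4 it was wholly masked, and in all 7 the short unit that best described the masked run was AC. Group 5 had 6 peaks with 18 to 61 copies. AP-1 was wholly masked in all 6, and every peak aligned to each of the others with its word opposite theirs (30 alignments in both directions, 69.8 to 87.3% identity). In the printed sequences all 6 read aaa before the word and a after it, and gacag follows within 12 bases in 5. On chromosome 19, from 33.3 to 60.9% of the copies aligned over the word keep it, a median of 41.4% over the 6 peaks. A pair of peaks near Smox and Kank1 (71.1% identity over 350 bp) also shared a masked AP-1 word, kept by 42.9 and 44.1% of the copies. For the masked DR1 words, 27 peaks had aligned copies, and a median over peaks of 71.4% of these kept the word (range 0 to 100%). The number of aligned copies ranged from 1, as near Nufip1, to 295, and each peak counted once. A share of 100% can thus rest on 1 copy, and the difference from AP-1 was not tested. A DR1 word near Ddit4, in the largest group, was kept in 1 of 295 copies.

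**Figure D5:**
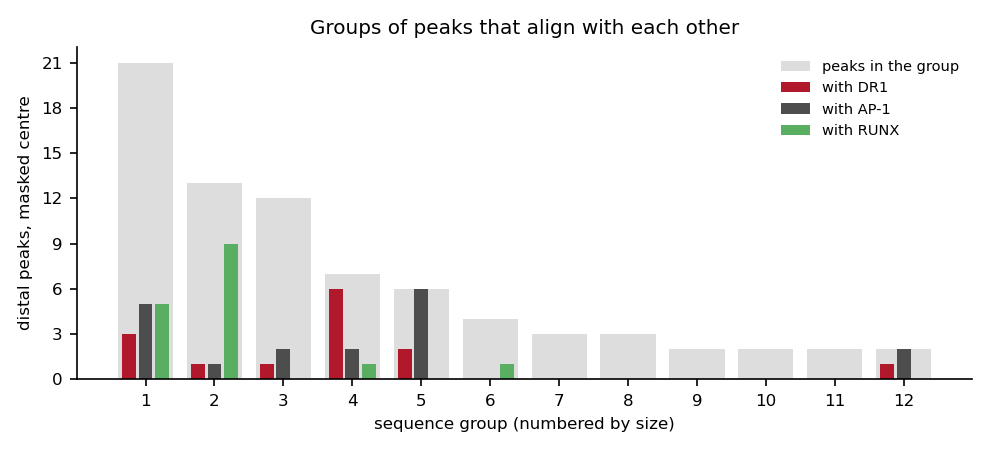
Number of masked-centre peaks in each of the 12 sequence groups (grey) and how many of them hold DR1 (red), AP-1 (dark grey) or RUNX (green) matches. Among the 8 groups with at least 3 peaks, the highest shares were in group 2 for RUNX (9 of 13), group 4 for DR1 (6 of 7) and group 5 for AP-1 (6 of 6). The words also share groups: in group 1, with 21 peaks, DR1 was in 3, AP-1 in 5 and RUNX in 5.

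No difference in place relative to genes was detected between the classes. Introns held 194 (59.9%), intergenic sequence 119 (36.7%) and exons 11 (3.40%), against 978 (60.8%), 558 (34.7%) and 72 (4.48%) of the unmasked-centre peaks. The log2 odds ratio for introns was -0.06 ± 0.18 (interval -0.41 to 0.29, Fisher's exact test, p = 0.756). The median distance to the TSS was 18818 bp for the masked-centre and 18622 bp for the unmasked-centre peaks. Of the 194 intronic peaks, 177 lay in a protein-coding gene and 139 in the gene whose TSS was nearest. A masked-centre peak had its nearest TSS at 313 of 21851 protein-coding genes (1.43%), of which 302 had 1 such peak and 11 had 2. The 11 were Apoa1, Atp2b1, Cald1, Clec2d, Dnaja2, Dusp6, Gab2, Hif1a, Lpin2, Ppp1cb and Runx1. An unmasked-centre distal peak was also assigned to 85 of the 313.

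Among 11 gene lists, inhibitors of cytokine and inflammatory signalling had the most genes with a masked-centre peak. They were 8 of 46 genes (17.4%), with 9 peaks, against the 1.43% of all protein-coding genes. By way of comparison, unmasked-centre distal peaks were assigned to 15 of the same 46 (32.6%) and to 5.95% of all genes. The amount of sequence nearest to each TSS was not adjusted for. The nearest was a peak 2908 bp from the TSS of Zfp36, whose product tristetraprolin speeds the decay of cytokine mRNAs, with a DR1 match. Zfp36l2, of the same protein family, had a peak at 24768 bp with an AP-1 match. Rgs1, which damps chemokine receptor signalling, had a peak at 10062 bp, also with AP-1. The MAP kinase phosphatase genes Dusp16 (22040 bp, DR1) and Dusp4 (85752 bp upstream, neither word) had 1 peak each. Dusp6, of the same family, had 2, at 41003 bp upstream with a DR1 match of 1 mismatch and at 68396 bp upstream with neither word. Socs5 (11387 bp) and Smad3 (32961 bp upstream), a suppressor of cytokine signalling and a signal carrier of the TGF-β pathway, had peaks with neither word. At none of these genes was the word wholly masked: at Zfp36, Zfp36l2, Rgs1, Dusp16 and Dusp6 it lay partly or wholly in unmasked bases.

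TH2 genes had 3 of 39 genes with a masked-centre peak: Gata3, the lineage-defining factor, 11047 bp from the TSS in an intron, Prdm1 at 81445 bp and Maf at 88646 bp. All lacked DR1 and AP-1. Unmasked-centre peaks were assigned to 13 of the same 39 genes. Over all protein-coding genes the shares were 1.43% for masked-centre and 5.95% for unmasked-centre peaks. Fatty acid oxidation genes had 2 of 46 (unmasked-centre peaks at 11 of 46). At Pdk4, a classical PPAR target and a kinase that restrains pyruvate oxidation, the peak lay 13546 bp upstream. It had a DR1 match of 2 mismatches that was not wholly masked, and a masked run of 21 bp with no copy on chromosome 19. T cell receptor and costimulatory genes had 2 of 46, Cd28 (15728 bp, DR1 with no mismatch) and Vav3 (22002 bp, AP-1), both words wholly masked. Unmasked-centre peaks were assigned to 14 of these 46.

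Lymphoid transcription factors (unmasked-centre peaks at 22 of 62) had 5 of 62 genes with 6 peaks. Ets1 had 1 at 2505 bp, and Runx1 had 2, at 16160 bp upstream with AP-1 and at 39311 bp. Fos, a subunit of AP-1 itself, had 1 at 26572 bp upstream, and Gata3 and Maf complete the list. The remaining lists had 1 gene each: Hif1a with 2 peaks (11867 and 13124 bp upstream) among 48 TH1, TH17 and regulatory T cell genes, Lpin2 with 2 (18232 and 41448 bp upstream) among 47 lipid genes, Il15ra (15796 bp upstream) among 42 cytokine receptor genes and S1pr1, the receptor for lymphocyte egress (46757 bp upstream), among 40 migration genes. In the same order, unmasked-centre peaks were assigned to 16, 13, 9 and 10 genes of these lists. The peak assigned to Il15ra by its nearest TSS lay in an intron of Il2ra. Housekeeping genes (0 of 40) and neuronal and muscle genes (0 of 43) had none, where unmasked-centre peaks were assigned to 3 and 4. With 1.43% of all protein-coding genes assigned a masked-centre peak, a list of this size may well have none, so these counts show no depletion.

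The 10 masked-centre peaks nearest to a TSS were at Art2b (195 bp), Zmynd8 (253 bp), Pfdn1 (687 bp), Ptpn4 (881 bp), Sgtb (920 bp), Scarb2 (927 bp), Gpr132 (940 bp), Ehmt2 (955 bp), 1600014C10Rik (956 bp) and Rhbdf2 (1046 bp, at the same distance as the peak of Sfmbt2). Of these 10, Sgtb and Gpr132 had AP-1 and none had DR1, beside the 65.1% of all 324 peaks that had neither word. Wholly masked AP-1 words nearest to a TSS were at Ppp6r2 (3894 bp upstream), Tmem156 (4882 bp), Ccdc69 (5285 bp), Olfr60 (6444 bp) and Zfp853 (8805 bp), followed by Mipol1, Dhcr7, Lamtor3, Vav3 and Kank1 at 13610 to 22176 bp. The first of these peaks, with Ccdc69 and Olfr60, had no copy on chromosome 19, whereas Dhcr7 had 3522. Nearest gene is a rule of distance, and no expression was measured here.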

How the data were processed

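Peaks of 1 ChIP library (TY1 antibody) against 1 input library were used. Per the submitters' processing notes and the series text, reads were aligned to mm10 with Bowtie2, uniquely mapped tags kept and peaks called with HOMER, with no versions named. A peak needed, per the file headers, 8 tags (false discovery rate 0.001) and 4 times the tag density of the input. The deposited score is 1 in every row, so only positions were used. Read length is given as both 50 and 100 bp in the sources.

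Sequence and lower-case masking came from GRCm38 (36.4% of bases masked; the program behind the masking is not given in the sources used here), genes from the GENCODE vM21 basic set. Both strands of the 200 bp around each centre were searched for 19 motifs, DR types with up to 2 mismatches in the cores. All 200 bp windows of distal sequence gave the background. Copies and groups came from blastn 2.17.0 (e-value at most 1e-05, at least 50 bp aligned, simple repeats filtered), tandem runs from the share of bases equal to the base 1 to 6 positions before. Shares were compared with Fisher's exact test (two-sided) and adjusted by Benjamini-Hochberg within a family at 0.05, central density with an exact binomial test (two-sided). Intervals are Clopper-Pearson at 95% (Wald for odds ratios) and cover counting error only. Of 462 listed symbols 460 were matched.

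The peaks, motifs, gene lists, tests and the naming rule were chosen with earlier results of these data known. Named are up to 5 peaks per gene list, the 10 with masked DR1 and fewest mismatches, the 10 with masked AP-1 and the 10 of any kind nearest a TSS, those with both words, genes with 2 peaks and examples of the groups. One gene that the rule names is not reported here. The scans and tests were tested on simulated data. The tools were Python 3.11.15, scipy 1.17.1, numpy 2.4.6, matplotlib 3.10.9 and pandas 2.3.3.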

Additional observations from a re-analysis of the deposited data

How the results depend on the processing

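With 1 library there is no replicate to leave out, and depth per peak is unknown, so weak and strong peaks weigh the same. No paired analysis was possible because there is only 1 ChIP library. The log2 odds ratios of DR1 and AP-1 between masked-centre and unmasked-centre peaks missed the threshold under all 15 and 14 alternatives run. Their sign turned for DR1 with the deposited peak as window (-0.0191), in the second part of the rows (-0.0270) and with the comprehensive transcript set (-0.0366, chosen after seeing the data), and for AP-1 with a 400 bp window (0.10) and in the first part of the rows (0.28). The tandem comparison turned to -0.93 with up to 1 mismatch. The number of motifs past the threshold was 1 as reported and 0 under 7 alternatives. It was 2 when distal peaks with at least 50% of their bases masked were set against the rest (GATA and ETS, lower in masked peaks, and not DR3). With wholly masked against wholly unmasked peaks it was 1 (RUNX, higher, and not DR3). DR3 was lost under 8 of 13, and its log2 odds ratio turned to 1.12 with wholly masked against wholly unmasked peaks. That sign comes from a constant added to every count where one is 0. DR3 was there in 0 of 7 peaks against 22 of 757 (2.91%), so the share itself was still lower. The lower share of masked DR1 sites in peak windows missed the threshold with no mismatch (-0.59) and with G between the cores (-0.65). The causes of the other changes were not tested. Central densities, the intron share, AP-1 sites and the spacer comparison kept their sign and side under the alternatives run.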

Other observations

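Masked centres were not spread evenly over the rows of the deposited list, whose order the sources used here do not explain. In the first part of the rows 135 of 987 distal peaks had a masked centre (13.7%, exact 95% interval 11.6 to 16), and in the second part 189 of 945 (20%, interval 17.5 to 22.7). DR1 was in 35 of the 135 (25.9%) and in 32 of the 189 (16.9%), and AP-1 in 33 (24.4%) and 25 (13.2%). The unmasked-centre peaks also had lower shares in the second part: DR1 was in 23.4% of 852 and 17.2% of 756, and AP-1 in 179 and 124 of them.

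A DR1 word near Dhx40, inside a masked run of 1317 bp, aligned over 125 bp (99.2% identity) to sequence beside the peak near Gsr, the gene of glutathione reductase. The word is kept there, but not within the 200 bp around that peak's centre, so that the Gsr peak does not count as holding DR1. Of 9 copies aligned over the word on chromosome 19, 3 kept it. A masked AP-1 word near Dhcr7, the last enzyme of cholesterol synthesis, was kept by 161 of 3918 aligned copies (4.11%).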
